A study of Mus musculus with 2 samples.

Results

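The cells described here are Ly6c2 Plac8 monocytes of the mouse tibialis anterior, a shin muscle, 1 day after injury. They were chosen by their own transcript counts among the barcodes of the injured library with at least 200 detected genes and at most 20% mitochondrial transcripts. A barcode was kept when it held at least 2 transcripts of Ly6c2 and at least 3 of Plac8, at most 1 each of Gpnmb and Mrc1, fewer than 10 of S100a8, and none of Cdh5 or Pdgfra. This gave 376 of 4421 injured barcodes, a share of 8.50% (95% Clopper-Pearson interval 7.70 to 9.37), out of 9806 barcodes of both libraries. The 2 libraries were made from C57B/6 mice 12 weeks old, 1 from muscle collected 24 h after injection of 1.2% barium chloride, a salt that makes muscle fibres die, and 1 from uninjured muscle. The treatment label names the injection for both samples, and the labels leave unsaid whether the uninjured muscle was injected with anything. Muscle was digested with protease and cells were loaded on droplets for 3' transcript counting, with each transcript counted once by its unique molecular identifier (UMI). The labels do not say how many mice each library holds.

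Monocytes are made in the bone marrow and circulate in blood. In mice the classical kind carries the surface protein Ly6C, leaves the blood through the chemokine receptor CCR2 and enters injured tissue early. There the cells change into macrophages, which clear dead fibres and later help regeneration. Many genes that mark the cell in blood are lost as macrophage genes come up.

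The name of the set was set beside genes that the limits did not use. Hp, Ifitm6 and Chil3 were given with the name as markers of these cells, so they are no independent check of it. Hp encodes haptoglobin, which binds free haemoglobin, Ifitm6 encodes a small membrane protein of the interferon-induced family, and Chil3 encodes a secreted chitinase-like protein. In mm10 coordinates of the GENCODE M21 annotation, Hp lies at chr8:109575128-109579172, Ifitm6 at chr7:141015699-141017924 and Chil3 at chr3:106147554-106167564, all on the minus strand. All 3 had a UMI in 220 of the 376 cells, 2 of them in 100 cells, 1 in 41 cells, and none in 15 cells. At 3000 UMIs per cell Chil3 was also seen in macrophages, in 68.3% of Gpnmb and 60.4% of Mrc1 macrophages beside 71.0% of monocytes. The comparison therefore rests on Hp and Ifitm6. All 376 cells held Fcer1g, the shared chain of Fc receptors in myeloid cells, but so did 3430 of the 4421 kept barcodes. Ptprc, the CD45 gene of blood cells, was held by 310. These genes did not go against the label for the set as a whole, apart from the 15 cells with none of the 3 and 3 cells of other lineages named further on.

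The limits left 842 barcodes after Ly6c2, 476 after Plac8, 457 after Gpnmb, 406 after Mrc1, 391 after S100a8, 381 after Cdh5 and 376 after Pdgfra. The 72 cells just inside the Ly6c2 limit, with 2 UMIs, had 434 CPM (UMIs per 1000000) of Hp and 68.4 CPM of C1qa, against 297 CPM of Hp and 207 CPM of C1qa in the 98 cells just outside, with 1 UMI. The 19 cells with 3 Plac8 UMIs had 297 CPM of Hp and 14.9 CPM of Arg1, against 295 CPM of Hp and 286 CPM of Arg1 in the 31 cells with 2. The 24 cells with 1 Mrc1 UMI had 278 CPM of Hp, against 76.5 CPM in the 8 cells with 2. At that limit the macrophage genes went the other way: the 24 cells inside had 262 CPM of C1qa and 346 CPM of Arg1, against 15.3 CPM of each in the 8 cells outside. Chil3 was 509 CPM in the 24 cells and 1453 CPM in the 8. The 17 cells with 1 Gpnmb UMI had 162 CPM of Hp, 1453 CPM of Arg1 and 459 CPM of C1qa, against 59.1, 1892 and 502 CPM in the 4 cells with 2. The edge of the set is therefore a range and not a gap: 40 of 627 Mrc1 macrophages and 12 of 199 Gpnmb macrophages also met both the Ly6c2 and the Plac8 limit. Within the set Ly6c2 ran from 2 to 49 UMIs with a median of 5, and Plac8 from 3 to 71 with a median of 13. Ly6c1, a close paralog of Ly6c2 that lies beside it on chromosome 15 and marks endothelium, had 24 UMIs in the set. In cells thinned to 3000 UMIs, Ly6c1 was seen in 2.66% of monocytes and in 66.1% of endothelial cells. Ly6c2 was seen in 2.92% of endothelial cells. Its share of 90.4% in monocytes was set by the limits, which required at least 2 UMIs of it before thinning.

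The injured matrix held 4489 barcodes and 39014762 UMIs, and the uninjured one 5581 barcodes and 22994502 UMIs. The 33 barcodes found in both include 3 of the monocytes. The monocytes held 2426949 UMIs, from 3534 to 17161 per cell with a median of 5997.5, and a median of 1777.5 genes and 3.05% mitochondrial UMIs. They were set beside 2 macrophage sets of the same library, 199 Gpnmb macrophages (at least 3 UMIs of Gpnmb, median depth 8209 UMIs) and 627 Mrc1 macrophages (at least 3 UMIs of Mrc1 and at most 1 of Gpnmb, median depth 8176). Both also needed Fcer1g and met the same S100a8, Cdh5 and Pdgfra limits. For background, 61 neutrophils (median depth 7409), 513 endothelial cells (6904) and 271 fibro-adipogenic cells (15919) were chosen by their own marker counts. All these sets come from 1 library, and the limits that made them also separate genes that go with the limiting genes. No test was therefore made and no p-value is given; genes were called by size alone, at 2-fold. Intervals of levels are exact Poisson and of ratios exact conditional binomial, at 95%, and cover counting error only, neither the spread among cells nor that among mice.

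The same limits found 9 of 5385 barcodes in the uninjured library, a share of 0.167% (0.0765 to 0.317), against 8.50% in the injured library. Depth differed: 52.8% of the uninjured barcodes kept lay below 3333 UMIs, the lowest count of the injured library. With every barcode of both libraries thinned to 1800 UMIs, a check chosen after seeing the data, 148 injured barcodes (3.35%, 2.84 to 3.92) and 4 uninjured barcodes (0.0743%, 0.0202 to 0.190) met the limits. The shares are of captured barcodes, so more monocytes and fewer other cells cannot be told apart. So few cells do not bear a comparison of genes, and no ratio is given. Chil3 had 4378 UMIs in the injured monocytes (1804 CPM) and 10 UMIs in the uninjured cells (203 CPM, 97.4 to 374). Il1b, which encodes the cytokine interleukin 1 beta, stood at 5279 CPM in the injured monocytes and 1483 CPM (1163 to 1865) in the uninjured cells. Cx3cr1, the fractalkine receptor of patrolling monocytes, stood at 27.2 CPM in the injured monocytes and 203 CPM (97.4 to 374) in the uninjured cells. Spp1, Arg1, Cxcl3, C1qa and S100a8 had no UMI in the 9 uninjured cells, where 0 counts in their 49219 UMIs allow up to 74.9 CPM (exact Poisson). In the injured monocytes Spp1 stood at 1357, Cxcl3 at 225, Arg1 at 159, S100a8 at 119 and C1qa at 97.7 CPM. Xist, the RNA of the inactive X chromosome, had 0 UMIs in the injured monocytes and 32 UMIs in the uninjured cells, in 9 of 9 of them. Y-linked genes had 368 UMIs in the injured monocytes and 0 in the uninjured cells, so injury and the sex of the mice cannot be told apart.

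**Figure D1:**
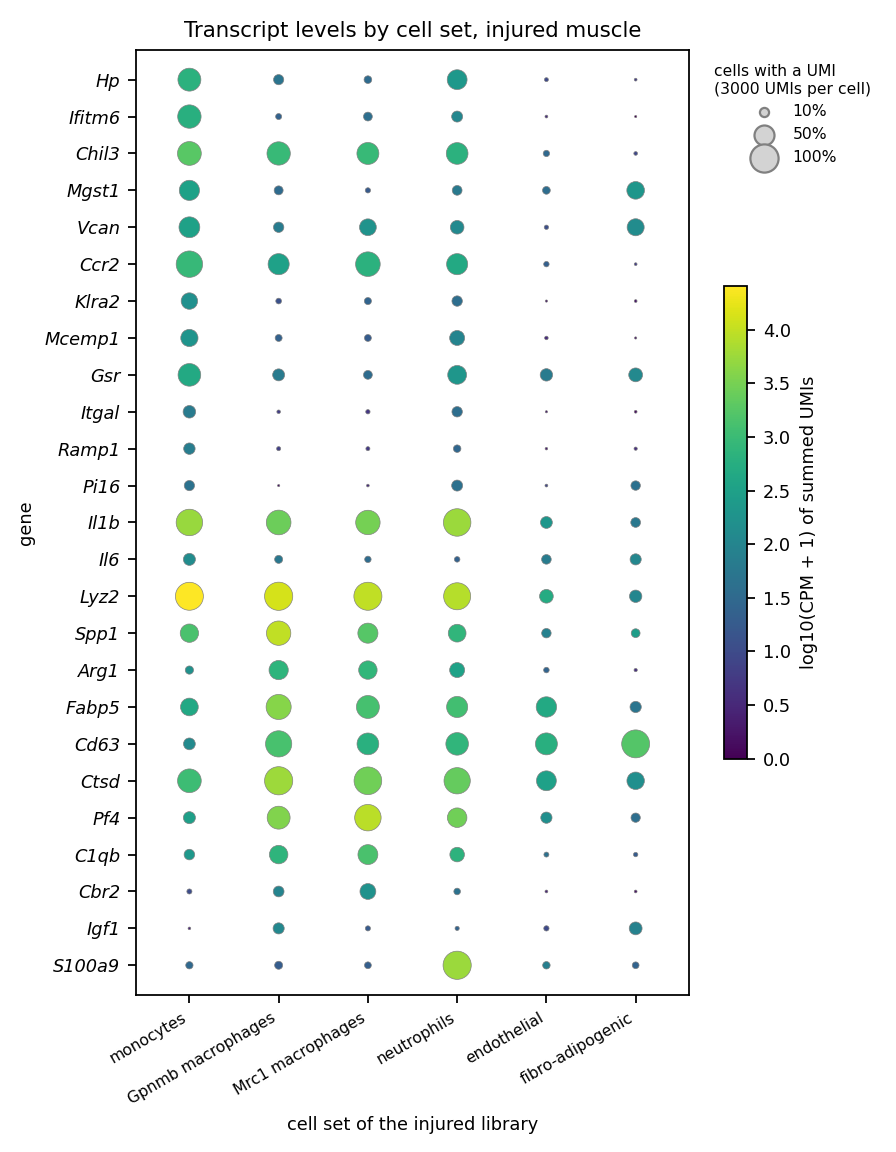
Levels of 25 genes (rows) in 6 cell sets of the injured library (columns, monocytes at left). Colour is the log10 of CPM + 1 of the summed UMIs and dot area is the share of cells with at least 1 UMI at 3000 UMIs per cell. Hp and Ifitm6 are brightest in the monocytes, Spp1 and Fabp5 in the Gpnmb macrophages, Pf4 in the Mrc1 macrophages and S100a9 in the neutrophils. S100a9 was used to choose the neutrophils.

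The most abundant transcript of the monocytes was Lyz2, which encodes lysozyme, at 25484 CPM (25284 to 25686), against 13293 CPM in Gpnmb and 9517 CPM in Mrc1 macrophages. With ribosomal and mitochondrial genes left aside, it was followed by Tmsb4x, Ftl1, Cxcl2 and Malat1. Hp stood at 651 CPM (619 to 684) in the monocytes, against 49.1 in Gpnmb and 32.8 in Mrc1 macrophages, a level 13.3-fold (10.6 to 16.7) and 19.8-fold (17.0 to 23.3) higher. Ifitm6 stood at 597 CPM in the monocytes, against 22.5 in Gpnmb and 38.6 in Mrc1 macrophages, and was 26.5-fold (19.2 to 37.7) and 15.5-fold (13.4 to 18) higher. At 3000 UMIs per cell, Hp was seen in 66.0% of monocytes and in 1.36% of endothelial cells, whose median raw depths were 5997.5 and 6904 UMIs. Ifitm6 was seen in 68.6% of monocytes and 0.390% of endothelial cells. Chil3, also used to describe these cells, was less particular in level: 1804 CPM in the monocytes, 932 in Gpnmb and 943 in Mrc1 macrophages, a 1.94-fold and a 1.91-fold difference that fell short of the 2-fold limit.

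Of the 5491 genes with at least 50 UMIs in the monocytes and Gpnmb macrophages together, 411 (7.48%) were at least 2-fold higher and 383 (6.98%) at least 2-fold lower in monocytes. Against Mrc1 macrophages, 316 of 7069 (4.47%) were higher and 547 (7.74%) lower. Counts of list members given below can be read beside these shares. Ribosomal protein transcripts made up 21.3% of the monocytes' UMIs, against 14.0% in Gpnmb and 18.7% in Mrc1 macrophages, and this bears on every other CPM. With ribosomal and mitochondrial genes left out of the totals, 538 genes were higher and 291 lower than in Gpnmb macrophages, so that 64.9% of the calls and not 51.8% were higher, and the median of all genes moved by 0.14 on the log2 scale. The counts against Mrc1 macrophages were then 334 higher and 493 lower. Against the other 4045 kept barcodes of the library, 541 of 11571 genes (4.68%) were higher and 3353 (29%) lower. Among the 10 highest there were Hp, Ifitm6, Ramp1, Mcemp1, Mmp8, Itgal, Trem3, Cd244 and Klra2, with Hp 15-fold (14.0 to 16.1) above the other barcodes.

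The classical monocyte list held 18 genes, 17 of them in the files under these symbols. Against Gpnmb macrophages, 11 of 16 measured members were higher and 0 lower, at a median log2 ratio of 1.44, where the median of all measured genes was -0.01. Against Mrc1 macrophages, 7 of 17 were higher and 0 lower, at a median log2 ratio of 0.87 beside -0.13 for all genes. Mgst1, a microsomal glutathione transferase, stood at 332 CPM in monocytes, 32.0 in Gpnmb and 16 in Mrc1 macrophages. Vcan, the matrix proteoglycan versican, was 4.89-fold (4.01 to 6.01) higher than in Gpnmb macrophages and 1.82-fold (1.66 to 2.01) higher than in Mrc1 macrophages. Ccr2, the receptor for the chemokine CCL2, stood at 892 CPM in monocytes, 319 in Gpnmb and 640 in Mrc1 macrophages. It was thus past 2-fold against Gpnmb macrophages alone, at 2.80-fold against them and 1.39-fold against Mrc1 macrophages. F13a1, the coagulation factor XIII subunit, was 440 CPM in monocytes, 263 in Gpnmb and 385 in Mrc1 macrophages, and Clec4a1 was 180 CPM in monocytes and 196 in Mrc1 macrophages.

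Outside that list, further genes were higher in both comparisons. Gsr, the glutathione reductase, stood at 456 CPM in monocytes, 63.9 in Gpnmb and 33.4 in Mrc1 macrophages. Klra2, a lectin-like receptor of the Ly49 family, stood at 156 CPM in monocytes, 11.2 in Gpnmb and 23.9 in Mrc1 macrophages. Ramp1, a partner of the receptor for calcitonin gene-related peptide, stood at 70.9 CPM in monocytes, 5.92 in Gpnmb and 4.48 in Mrc1 macrophages. Against Gpnmb macrophages the 10 highest also included Plcb1, a phospholipase C, at 67.6 CPM in monocytes and 5.92 in macrophages, and the sorting receptor Sorl1, at 43.7 and 4.14 CPM in the same order of sets.

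Pi16, a peptidase inhibitor family gene often used to mark fibroblasts, stood at 45.3 CPM (37.3 to 54.6; 110 UMIs) in monocytes. It had 0.592 CPM in Gpnmb macrophages and 2.42 CPM in Mrc1 macrophages, but 40.5 CPM in neutrophils and 40.6 CPM in fibro-adipogenic cells. The 48 monocytes with a Pi16 UMI at 3000 UMIs per cell held Dcn, which encodes the matrix protein decorin, in 8.33% of cells and Gsn, which encodes gelsolin, in 37.5%. In the 328 monocytes without Pi16 these shares were 6.10% and 27.7%. Col1a1 was at 0 in the Pi16 cells, where its share of 1.83% in the others would amount to less than 1 cell. Ifitm6 averaged 2.79 UMIs in the Pi16 cells and 1.74 in the others. The part of fibroblast RNA in the Pi16 level was not tested.

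Genes also known from neutrophils were checked against that set. Mcemp1, a mast cell and myeloid membrane protein gene, stood at 186 CPM in monocytes, 21.9 in Gpnmb macrophages, 17.5 in Mrc1 macrophages and 98.1 in neutrophils. Mmp8, the neutrophil collagenase, stood at 96.8 CPM in monocytes, 65.7 in Gpnmb macrophages, 13.1 in Mrc1 macrophages and 38.4 in neutrophils. Trem3, an activating receptor gene of myeloid cells, stood at 67.2 CPM in monocytes and 49.0 in neutrophils. Lcn2, the iron-carrier binding protein lipocalin 2, was 67.2 CPM in monocytes and 249 CPM in neutrophils. S100a9, a defining gene of neutrophils, was used with S100a8 to choose that set, at least 10 UMIs of each. Its level of 5518 CPM in neutrophils, against 30.1 CPM in monocytes, was therefore set in part by the choice. At 3000 UMIs per cell it was seen in 6.12% of monocytes and 6.43% of endothelial cells. The 8 neutrophil markers, S100a9 among them, summed to 143 CPM in monocytes, 47.3 in Gpnmb macrophages, 49.2 in Mrc1 macrophages and 7417 in neutrophils. Ngp was at 0 in the monocytes. The part of neutrophil RNA in these levels was not tested.

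The adhesion list, which shares members such as Itga4 with the classical list, had 5 of 11 measured members higher and 1 lower against Gpnmb macrophages (median 0.99). It had 5 of 13 higher and 0 lower against Mrc1 macrophages (median 0.76). Itgal, the alpha chain of the integrin LFA-1, was 65.5 CPM in monocytes, 5.33 in Gpnmb and 4.10 in Mrc1 macrophages. Selplg, the selectin ligand PSGL-1, was 136 CPM in monocytes, 58.0 in Gpnmb and 61.2 in Mrc1 macrophages. Itga6, an integrin chain that binds laminin, was the lower one, at 8.24 CPM in monocytes and 30.2 in Gpnmb macrophages.

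A list of genes of Ly6C-low patrolling monocytes had 4 of 6 measured members higher against Gpnmb macrophages, and 4 of 7 higher and 1 lower against Mrc1 macrophages. The 4 were Itgal, Cx3cr1, Ceacam1 and Pglyrp1, of which Pglyrp1, a peptidoglycan recognition protein, was higher still in neutrophils (32.1 CPM in monocytes, 130 in neutrophils). The list also held genes too low to be measured. Ace, the angiotensin-converting enzyme, had 6 UMIs in all monocytes, Spn had 18, and Cd300e had 0, which allows up to 1.52 CPM (exact Poisson). Nr4a1, the nuclear receptor that Ly6C-low monocytes need in mice, was 515 CPM in monocytes, 465 in Gpnmb and 504 in Mrc1 macrophages.

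**Figure D2:**
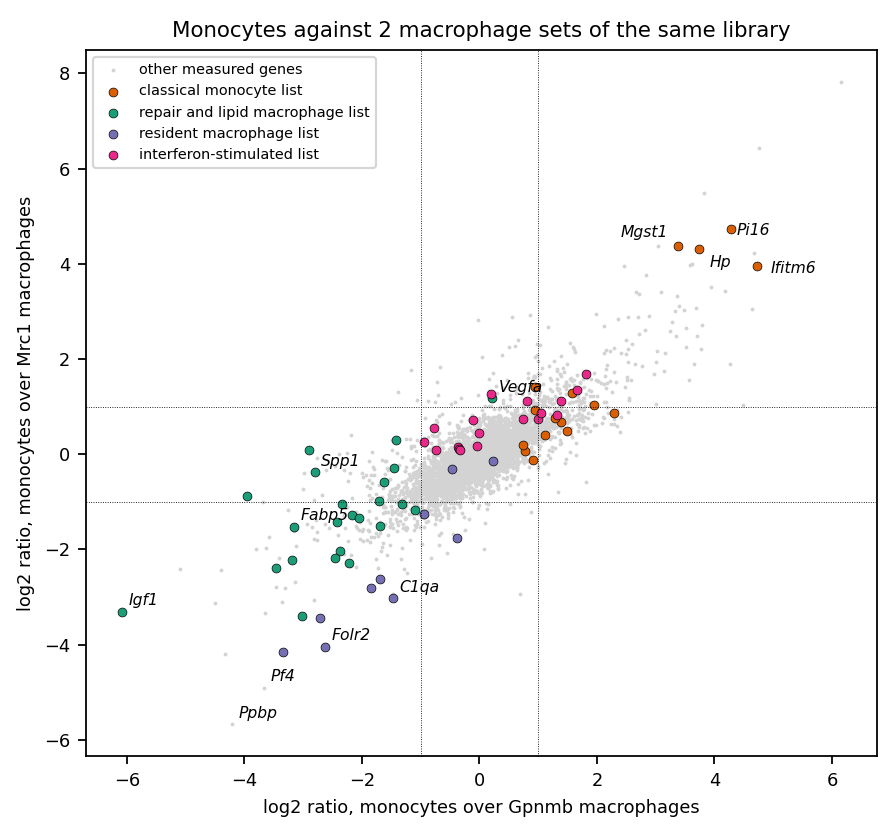
Each point is a gene measured in both comparisons, with the log2 ratio of monocytes over Gpnmb macrophages on the horizontal axis and over Mrc1 macrophages on the vertical axis; dotted lines mark 2-fold. Hp, Mgst1 and Ifitm6 of the classical list lie at upper right, the repair and lipid list lies mostly left of the line at -1, and Vegfa is its 1 member above the upper line. The 2 axes share the monocytes, so points lie along the diagonal by construction, and the unlabelled points at the far upper right include Elane and other granule genes held mostly by 1 cell.

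Genes of repair and lipid-handling macrophages were lower in most members. Of 23 members, all measured, 22 were at least 2-fold lower in monocytes than in Gpnmb macrophages and 0 higher (median log2 ratio -2.33). Against Mrc1 macrophages 15 were lower and 1 higher (median -1.28). Spp1, which encodes the secreted phosphoprotein osteopontin, stood at 1357 CPM in monocytes, 9476 in Gpnmb and 1765 in Mrc1 macrophages. Fabp5, a fatty acid-binding protein, stood at 443 CPM in monocytes, 3964 in Gpnmb and 1281 in Mrc1 macrophages. Cd63, a tetraspanin of late endosomes, was 11 times (9.77 to 12.5) lower than in Gpnmb and 5.22 times (4.64 to 5.90) lower than in Mrc1 macrophages. Igf1, a growth factor for muscle, had 4 UMIs in all monocytes (1.65 CPM), against 112 CPM in Gpnmb and 16.4 CPM in Mrc1 macrophages. Vegfa, the angiogenic growth factor, was the member not lower against Gpnmb macrophages, at 43.3 CPM in monocytes, 37.3 in Gpnmb and 19.2 in Mrc1 macrophages. Gpnmb itself is a gene of lipid-handling macrophages, so these values are not independent of how the sets were chosen.

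Among the 10 lowest genes against Gpnmb macrophages, Ctsk, the protease cathepsin K, had 3 UMIs (1.24 CPM) in monocytes and 61.6 CPM in macrophages, a level 49.8 times (16.6 to 245) lower. Syngr1, a vesicle membrane protein, was 11.9 CPM in monocytes and 186 in Gpnmb macrophages. The coagulation factor F7 was 5.77 CPM in monocytes and 74.0 in Gpnmb macrophages, and the creatine transporter Slc6a8 was 3.3 and 40.8 CPM in the same order of sets. Rnf128, Ahnak2, Pmp22, Pf4 and Tnfsf12 completed these 10.

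Genes of resident macrophages were lower in 6 of 10 measured members against Gpnmb macrophages (median -1.58) and in 13 of 15 against Mrc1 macrophages (median -3.03), and higher in 0 of them in both. The complement genes C1qa, C1qb and C1qc, which lie side by side on chromosome 4, were 97.7, 223 and 99.3 CPM in monocytes and 797, 1379 and 699 CPM in Mrc1 macrophages. Folr2, a folate receptor, was 7.83 CPM in monocytes and 129 in Mrc1 macrophages. Cbr2, a carbonyl reductase, was 9.48 CPM in monocytes and 170 in Mrc1 macrophages. Lyve1, the hyaluronan receptor of perivascular macrophages, had 0 UMIs in monocytes, an upper limit of 1.52 CPM (exact Poisson), and 21.4 CPM in Mrc1 macrophages. Csf1r, the receptor of the macrophage growth factor, belonged to the same list but was 195 CPM in monocytes, 167 in Gpnmb and 215 in Mrc1 macrophages.

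Genes of iron, haem and redox handling were lower in 7 of 12 measured members against Gpnmb macrophages and higher in 0 (median -1.46), and lower in 3 and higher in 1 against Mrc1 macrophages (median -0.41). The ferritin chains Ftl1 and Fth1 stood at 13362 and 7583 CPM in monocytes, 41894 and 30337 CPM in Gpnmb macrophages and 20611 and 10033 CPM in Mrc1 macrophages. Hmox1, which breaks down haem, was 213 CPM in monocytes, 1073 in Gpnmb and 439 in Mrc1 macrophages. Slc7a11, the cystine transporter, was 403 CPM in monocytes, 358 in Gpnmb and 160 in Mrc1 macrophages. Lysosomal genes were lower in 7 of 16 and higher in 0 against Gpnmb macrophages, and lower in 4 of 16 and higher in 0 against Mrc1 macrophages. Over all measured genes 6.98% and 7.74% were lower in the same order of sets. Ctsb, Ctsd and Ctsl, lower in both comparisons, also belong to the repair and lipid list, as does Hmox1 of the iron list. These lists are therefore not separate. Ctsd, the protease cathepsin D, was 1048 CPM in monocytes, 5652 in Gpnmb and 2796 in Mrc1 macrophages.

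Of 11 measured inflammatory mediators, 2 were higher and 1 lower against Gpnmb macrophages (median -0.25), beside 7.48% and 6.98% of all measured genes. Against Mrc1 macrophages 1 was higher and 0 lower (median 0.07), beside 4.47% and 7.74% of all measured genes. With 11 members, these counts were not tested against those shares. Il1b stood at 5279 CPM (5188 to 5371) in monocytes, 2637 in Gpnmb and 3082 in Mrc1 macrophages, ratios of 2.0 (1.93 to 2.07) and 1.71 (1.67 to 1.75), the first just at the 2-fold limit. Il6, which encodes the cytokine interleukin 6, stood at 134 CPM in monocytes, 55.6 in Gpnmb and 34.3 in Mrc1 macrophages; it was seen in 17.8% of monocytes and 11.1% of endothelial cells. Tnf, which encodes tumour necrosis factor, was lower, at 303 CPM in monocytes, 726 in Gpnmb and 390 in Mrc1 macrophages. Nos2, the inducible nitric oxide synthase, had 0 UMIs in all 3 sets.

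Chemokine genes were lower or level, never 2-fold higher. Of 7 measured CXC chemokines, 4 were lower against Gpnmb macrophages, as were 5 of 8 against Mrc1 macrophages. Cxcl3, which attracts neutrophils, was 225 CPM in monocytes, 816 in Gpnmb and 808 in Mrc1 macrophages, and Cxcl1, of the same group, was 1032 CPM in monocytes, 2498 in Gpnmb and 2089 in Mrc1 macrophages. Cxcl2, among the 5 most abundant transcripts of the monocytes, stood at 11965 CPM, against 21020 in Gpnmb and 16198 in Mrc1 macrophages. Pf4, platelet factor 4, was 293 CPM in monocytes, 3722 in Gpnmb and 8761 in Mrc1 macrophages. At 3000 UMIs per cell Pf4 was seen in 17.8% of monocytes and 15.4% of endothelial cells. The 10 monocytes with the most Pf4 held 68.6% of its UMIs in the set. The part of RNA from other cells in the Pf4 level was not tested. Ppbp was 21 CPM in monocytes and 1073 in Mrc1 macrophages, while the platelet genes Gp1bb and Gp9 were at 0 in monocytes and in both macrophage sets. Itga2b, a further platelet marker, was at 0 in Gpnmb macrophages but not in monocytes or Mrc1 macrophages. No monocyte held more than 1 UMI of Itga2b. Of the CC chemokines, 3 of 9 measured were lower against Gpnmb and 6 of 10 against Mrc1 macrophages. Ccl7, a ligand of CCR2, was 2275 CPM in monocytes, 8559 in Gpnmb and 7927 in Mrc1 macrophages, and Ccl8, another ligand, was 18.5 CPM in monocytes, 374 in Gpnmb and 338 in Mrc1 macrophages. Ccl2, the main ligand of CCR2, was 4201 CPM in monocytes, 8269 in Gpnmb and 6501 in Mrc1 macrophages, and Ccl9 was 2638, 2945 and 4958 CPM in the same order of sets.

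Interferon-stimulated genes divided. Of 18 measured members, 5 were higher and 0 lower in each comparison, with medians of 0.10 against Gpnmb and 0.74 against Mrc1 macrophages. Over all measured genes 7.48% were higher against Gpnmb and 4.47% against Mrc1 macrophages. Ifitm3, which blocks viral entry, stood at 4598 CPM in monocytes, 1457 in Gpnmb and 1813 in Mrc1 macrophages, and Ly6e stood at 1366 CPM in monocytes, 389 in Gpnmb and 422 in Mrc1 macrophages. Samhd1, a nucleotide hydrolase, was higher in both comparisons too. The others past 2-fold were Ifi47 and Ly6a against Gpnmb macrophages, and Irf7 and Zbp1 against Mrc1 macrophages. Isg15 and Ifit3 were not higher past 2-fold. Isg15 was 231 CPM in monocytes, 247 in Gpnmb and 139 in Mrc1 macrophages, and Ifit3 was 17.3, 33.1 and 14.5 CPM in the same order.

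Class II genes of antigen presentation differed by comparison, with 2 of 6 higher and 0 lower against Gpnmb macrophages and 0 of 7 higher and 2 lower against Mrc1 macrophages. Counts in this paragraph stand beside shares over all measured genes of 7.48% higher and 6.98% lower against Gpnmb macrophages. Against Mrc1 macrophages these shares were 4.47% and 7.74%. The counts were not tested against them. The 2 higher were H2-DMa and H2-DMb1, which load peptides, with H2-DMb1 at 186 CPM in monocytes, 35.5 in Gpnmb and 134 in Mrc1 macrophages. H2-Ab1 itself was 420 CPM in monocytes, 336 in Gpnmb and 689 in Mrc1 macrophages. Among myeloid transcription factors 3 of 20 were higher and 5 lower against Gpnmb macrophages, and 1 higher and 3 lower against Mrc1 macrophages. Spi1, the master factor PU.1, was 555 CPM in monocytes, 339 in Gpnmb and 379 in Mrc1 macrophages, and Cebpa was 11.1 CPM in monocytes, 55.0 in Gpnmb and 27.0 in Mrc1 macrophages. Klf13 was higher in both comparisons, at 110 CPM in monocytes, 49.1 in Gpnmb and 47.9 in Mrc1 macrophages. In coagulation, the genes of clotting factor F10 and of the urokinase receptor, Plaur, were 3.55-fold and 2.08-fold higher than in Mrc1 macrophages; against Gpnmb macrophages F10 was 1.58 times lower and Plaur 1.73-fold higher.

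Chemokine receptors had 3 of 8 measured members higher and 0 lower against Gpnmb macrophages (Ccr2, Cx3cr1 and Fpr2), and 1 of 8 higher and 0 lower against Mrc1 macrophages (Cx3cr1). Calls in all lists of this paragraph can be read beside the shares over all measured genes. Those were 7.48% higher and 6.98% lower against Gpnmb macrophages, and 4.47% and 7.74% against Mrc1 macrophages. Among oxidative phosphorylation genes 0 of 14 were called in either comparison, with medians of -0.02 and -0.15. Glycolysis had 1 of 13 higher and 1 lower against Gpnmb macrophages, and 0 of 14 higher and 1 lower against Mrc1 macrophages. The 7 measured S100 genes had 1 higher against Gpnmb macrophages and 0 against Mrc1 macrophages, none lower. Receptors for pathogens and Fc had 1 of 15 higher and 2 lower against Gpnmb macrophages, and 0 of 15 higher and 2 lower against Mrc1 macrophages. Immediate early genes had 1 of 15 higher and 2 lower against Gpnmb macrophages, and 0 of 15 higher and 1 lower against Mrc1 macrophages. Of 18 cell cycle genes, 3 and 5 reached the measuring limit; Mki67, a marker of dividing cells, had 12 UMIs in all monocytes.

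The list of marrow granule genes showed what 1 cell can do. All 5 measured members were higher against Gpnmb macrophages (median 4.33) and all 6 against Mrc1 macrophages (median 4.09). A single cell, the deepest of the set at 17161 UMIs, held 304 of the 306 Elane UMIs, 85 of 87 for Mpo, 112 of 179 for Prtn3 and 57 of 61 for Ctsg, the proteases and peroxidase of marrow granules. It held 34 UMIs of Ly6c2 and 71 of Plac8, the highest Plac8 count of the set, 41 of Nkg7, and 0 of Lyz2. In 2 further cells of 4232 and 4592 UMIs, Siglech, a receptor of plasmacytoid dendritic cells, had 6 and 3 UMIs, with Plac8 at 33 and 35 and Lyz2 at 1 and 0. Without these 3 cells, a choice made after seeing the data, 373 monocytes remained and 2 marrow genes reached the measuring limit against each macrophage set, both higher in each: Lcn2 with 163 UMIs and Prtn3 with 67. The classical list then kept its counts, 11 of 16 and 7 of 17 higher.

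Markers of other cells were also summed, and not all were low in the monocytes. The 6 conventional dendritic markers summed to 44.5 CPM in monocytes, 2.37 in Gpnmb macrophages, 22.9 in Mrc1 macrophages and 50.1 in the other kept barcodes. The 4 plasmacytoid markers summed to 16.1 CPM in monocytes and 6.1 in the other kept barcodes. Platelet and resident macrophage markers summed to 314 and 429 CPM in monocytes, against 9834 and 3058 CPM in Mrc1 macrophages. The 5 endothelial markers summed to 70.5 CPM in monocytes and 7311 CPM in endothelial cells, and the 4 fibro-adipogenic markers to 200 CPM in monocytes and 8835 CPM in fibro-adipogenic cells. The mast cell and basophil markers were all at 0, as were Cd3d, Cd3e, Klrb1c and Trac of T and NK cells and Cd79a of B cells. Myofibre markers summed to 119.5 CPM in monocytes, 107 in Gpnmb and 126 in Mrc1 macrophages. Haemoglobin genes summed to 827 CPM, with 78.7% of Hba-a1 in 1 cell.

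**Figure D3:**
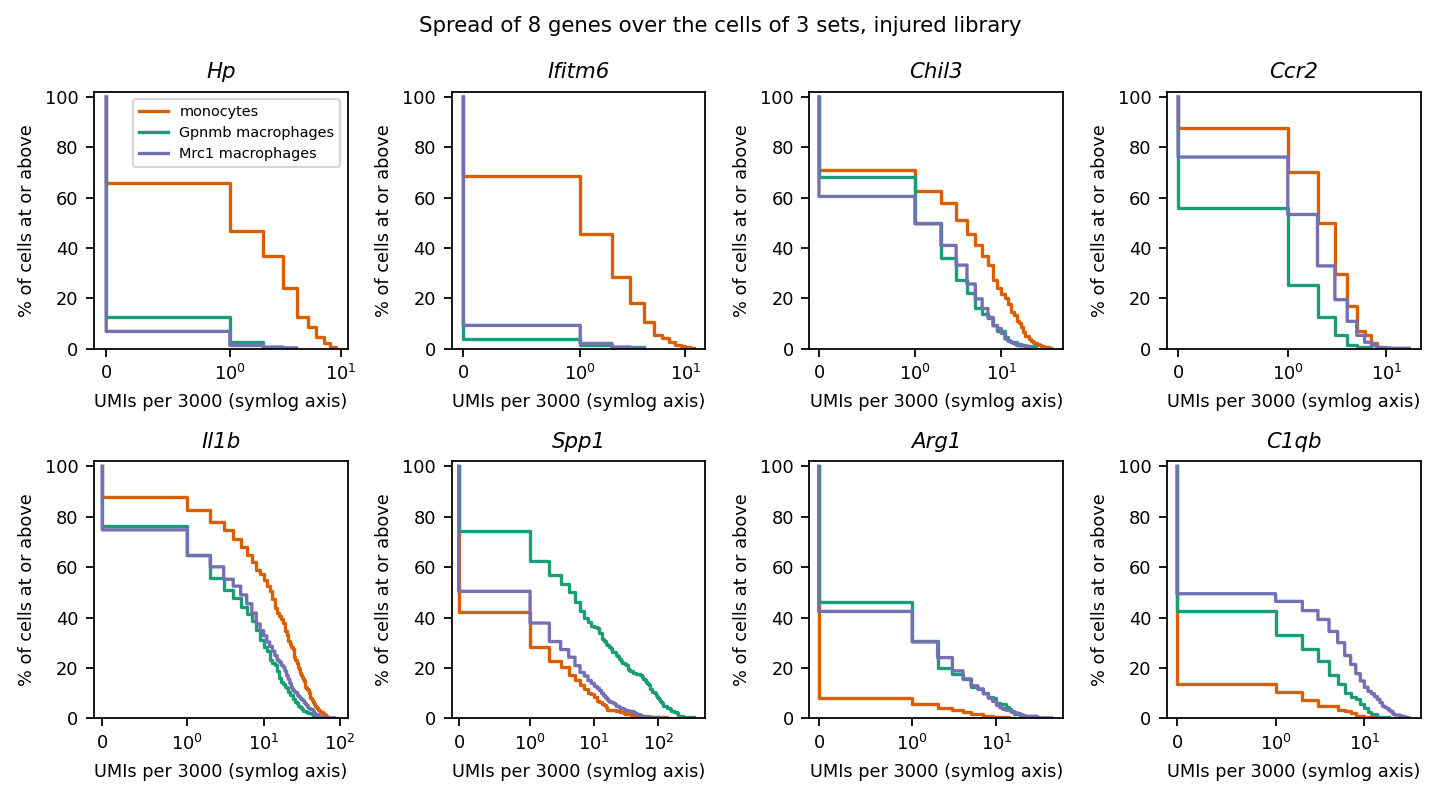
Each panel gives, for 1 gene, the percent of cells (vertical axis) with at least the number of UMIs on the horizontal axis (symlog scale) after thinning to 3000 UMIs per cell, for monocytes, Gpnmb macrophages and Mrc1 macrophages. The monocyte line lies highest for Hp, Ifitm6, Chil3, Ccr2 and Il1b, and lowest over most of its length for Spp1, Arg1 and C1qb.

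The monocytes also differed among themselves. Typical monocyte genes were spread over the set: the 10 cells with the most UMIs of a gene held 11% of Hp, 11.1% of Ifitm6, 7.90% of Ccr2 and 12.5% of Chil3. Macrophage and class II genes lay in fewer cells: the 10 leading cells held 51.6% of Spp1, 74.2% of Arg1, 51.8% of C1qb and 60.4% of H2-Ab1. Spp1 reached 454, 404 and 270 UMIs in single cells while its median was 1, and without these 3 its level was 892 CPM in place of 1357. Arg1, the arginase of alternatively activated macrophages, lay in 43 of 376 cells. Its level was 1453 CPM in the 17 monocytes with a Gpnmb UMI, against 159 CPM in the whole set.

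To describe this spread, cells thinned to 3000 UMIs were ordered by their sum of the classical list without the genes of the limits, and the 94 highest and the 94 lowest cells were set side by side. The sum ran from 136 to 311 UMIs in the highest cells and from 3 to 67 in the lowest, with median raw depths of 5607.5 and 6945 UMIs. Lyz2 made up 77.2% of the sum. Outside the list, Mcemp1 had 110 UMIs in the highest cells and 19 in the lowest, Gsr 182 and 40, and the phosphodiesterase gene Smpdl3a 234 and 44. C3, the central complement component, had 50 UMIs in the highest cells and 6 in the lowest, and Cd302, a C-type lectin, 65 and 9. Among lower genes, H2-Ab1 had 12 UMIs in the highest cells and 272 in the lowest, C1qb 1 and 132, Arg1 1 and 52, Dab2, an endocytic adaptor, 8 and 79, and Ccl7 207 and 908. Ordered without Lyz2, a choice made after seeing the data, the log2 ratios of highest over lowest cells were 1.36 in place of 2.19 for Gsr and 1.74 in place of 2.53 for Mcemp1, and -4.25 in place of -4.50 for H2-Ab1. Over all 376 cells, the sums of other lists were at most weakly related to the classical sum, from a Spearman rho of -0.30 for iron and haem genes to 0.23 for coagulation genes; all lists share each cell's fixed 3000 UMIs.

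**Figure D4:**
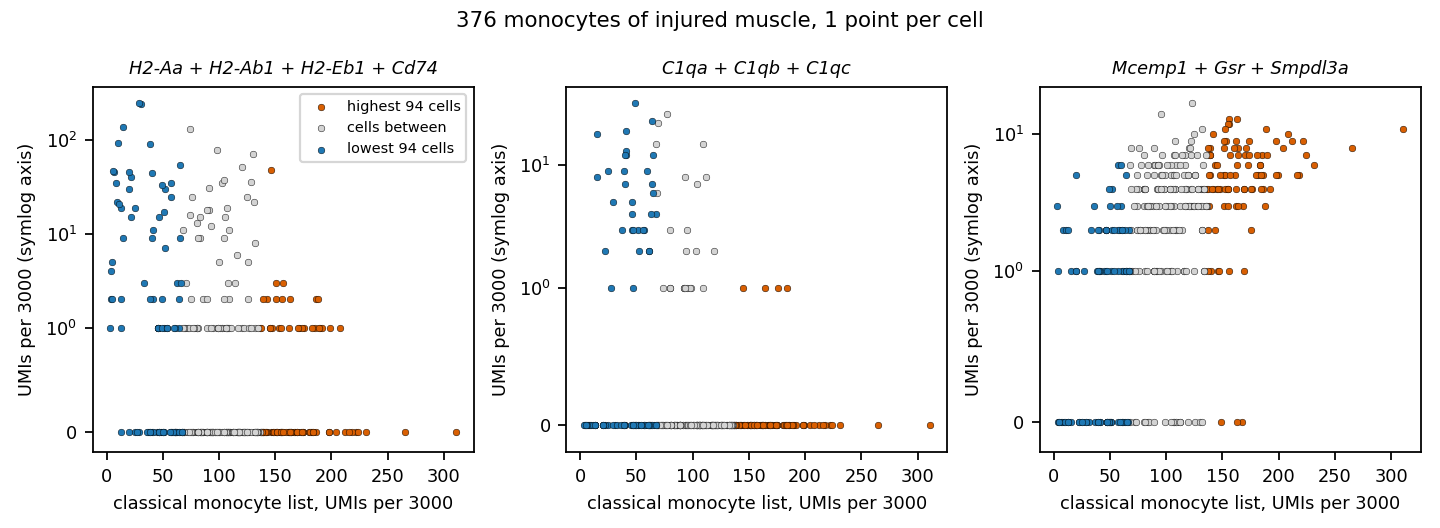
Each point is 1 of the 376 monocytes, with the classical list sum per 3000 UMIs on the horizontal axis and, on a symlog vertical axis, summed UMIs of class II genes, C1q genes, or Mcemp1, Gsr and Smpdl3a. Colours mark the 94 highest, the cells between and the 94 lowest by that sum; cells with many class II or C1q UMIs lie mostly at the left, while Mcemp1, Gsr and Smpdl3a climb to the right.

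The low end held cells with different genes. By limits set after seeing the data and on thinned counts, 35 monocytes had at least 3 UMIs of H2-Ab1, 27 had at least 3 of C1qb and 22 at least 2 of Arg1. Of the class II and C1q cells 5 were shared, 14.3% of the class II cells and 18.5% of the C1q cells, and 1 cell was shared by the class II and Arg1 groups. The C1q and Arg1 groups shared 8 cells, 29.6% of the C1q cells and 36.4% of the Arg1 cells. The class II cells averaged 0.400 UMIs of Hp, 1.97 of Chil3 and 43.2 of Lyz2, against 2.20, 6.51 and 83.8 in the other 341 monocytes. Cd209a, a lectin of monocyte-derived dendritic cells, was seen in 22.9% of class II cells, 8 of 35, and in 1.76% of the others. Flt3, a receptor of dendritic cell precursors, was seen in 5.71% of class II cells, 2 of 35, and in 0.587% of the others. Their median depth, 6157 UMIs, was close to the 5972 of the others. The C1q cells averaged 0.333 UMIs of Ifitm6 and 0.111 of Mgst1, against 1.99 and 1.19 in the other 349 monocytes. The Arg1 cells averaged 9.86 UMIs of Spp1, 5.55 of Pf4 and 4.41 of Fabp5, against 3.05, 0.404 and 1.06 in the other 354 monocytes. The C1q and the Arg1 cells were deeper, at medians of 8282 and 8378 UMIs, against 5946 and 5959 UMIs in the rest, near the 8176 and 8209 of the macrophage sets. Ccr2 was seen in 77.8% of C1q cells and 77.3% of Arg1 cells, against 88.5% and 88.4% of the rest. Whether barcodes with 2 cells take part in these groups was not tested; 10 of the 376 monocytes were among the 161 barcodes with the highest doublet scores.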

How the data were processed

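Single-cell 3' libraries (10x v2, per the labels) of 1 injured and 1 uninjured tibialis anterior were used. The deposited values are raw UMI counts per gene and barcode; per the submitters' processing notes, the authors used Cell Ranger 2.1.1 and mm10. The rule that selected barcodes before deposit is not given in the sources. Rows of the same symbol were added, giving 28625 symbols. Barcodes under 200 genes (64 injured, 178 uninjured) or above 20% in mitochondrial UMIs (4 and 18) were dropped. Doublets were kept, since the automatic threshold of Scrublet (scanpy 1.11.5) marked 1 barcode; leaving out the top 161 scores was an alternative. UMIs were summed per set and divided by the set's total. A lower count under 3 was raised to 3 for log2 ratios. Genes named are the 10 highest and 10 lowest ratios per macrophage set and the 10 highest over all other barcodes, with at least 50 UMIs and a UMI in 20% of the higher set's cells, the 5 most abundant, and list members. Thinning drew 3000 UMIs per cell without replacement. Ratios and intervals were tested on simulated Poisson counts per set. These do not hold the clumping of UMIs in few cells, so the intervals were checked for counting error only. Python 3.11.15, numpy 2.4.6, scipy 1.17.1 and pandas 2.3.3 were used. The members and the lists were chosen with earlier results of these data known.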

Additional observations from a re-analysis of the deposited data

How the results depend on the processing

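With 1 library per condition, no value has a replicate check, and intervals cover counting error only. No paired analysis was possible because each group has 1 library. The share of monocytes among injured barcodes depends on the limits: it was 11.9% with looser and 6.54% with stricter limits on Ly6c2 and Plac8, 5.75% with limits on counts thinned to 3000 UMIs, and 3.35% (148 cells) with counts thinned to 1800, where the uninjured share was 0.0743%. With a measuring limit of 10 UMIs in place of 50, 891 genes were higher and 966 lower than in Gpnmb macrophages, and 659 and 1070 than in Mrc1 macrophages. With cells thinned before summing, 244 genes were lower than in Gpnmb and 350 lower than in Mrc1 macrophages. Of 13 list medians past 2-fold, all 137 values under alternatives kept direction and stayed past 2-fold. The 75 ratios of named genes past 2-fold kept direction in 806 of 806 values and stayed past 2-fold in 797. These results were counted because they were past 2-fold, and the alternatives reuse the same library. Keeping direction was therefore likely from the start and is no independent check. The marrow granule median was smaller under several: over Gpnmb macrophages it was 2.66 at 10 UMIs, 3.0 with the mean of per-cell CPM and 2.95 without the 3 cells of other lineages, in place of 4.33. Over Mrc1 macrophages it was 3.41, 3.45 and 2.53 in the same order of settings, in place of 4.09. The exceptions among genes were Ccl24 (-0.59) and Il1b (0.99) against Gpnmb macrophages under looser limits, and F7 against Mrc1 macrophages (-1.0, and -0.76 to -0.99 under 7 alternatives). Without the highest doublet scores Ppbp was -5.45 and -6.94, in place of -4.21 and -5.67. Ordering the cells without Lyz2 gave log2 ratios of the highest over the lowest 94 cells of 1.36 for Gsr and 1.74 for Mcemp1. Thinning leaves fewer UMIs, and causes of these shifts were not tested.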
